A study of Mus musculus with 51 samples.

Results

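*Apln*, the gene of the secreted peptide apelin, and *Aplnr*, the gene of its receptor, were followed through the differentiation of mouse embryonic stem cells (mESCs) to cardiac mesoderm. Both were found by symbol in all 9 tables of expression values, as 2 of the 24538 genes of each table. They were chosen by their measured values, because earlier readings of the same tables had shown them among the genes that were lower in knockout (KO) cells, so their levels and ratios are given as a description, with no test.

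Apelin is a peptide ligand of the apelin receptor, a G protein-coupled receptor on the cell surface that signals through inhibitory G proteins and β-arrestins. The same receptor has another, earlier acting ligand, the short peptide Elabela (Toddler), encoded by *Apela*, and both ligands are cut from longer precursors. In the embryo the receptor is known from nascent mesoderm and from cells that form the heart and vessels, and loss of Elabela or of the receptor disturbs mesoderm migration and heart formation.

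RNA-seq of 18 samples covered 14 line and stage groups, in which mESC aggregates were differentiated on fibronectin with Bmp4 (20 ng/ml). F1G4 wild-type (WT) cells were taken as aggregates before induction (ES) and on days 1, 2 and 3, with 2 samples per stage. *Eomes* KO, *T* KO and *Eomes*/*T* double KO (dKO) cells, all F1G4, were taken on days 2 and 3. A second line, on a 129S/SvEvxC57BL/6 background, gave *Smad4* KO and WT cells on days 1 and 2. The labels list 1 sample for each of these groups. *Eomes* and *T* encode T-box transcription factors of the primitive streak, and *Smad4* encodes the shared partner of the Smads that carry Bmp and Nodal signals. The *Eomes* and *T* KO lines lacked the promoter and first exon of their gene after cutting with paired Cas9 nickases, and the dKO line was made in the same way from *Eomes* KO cells. The *Smad4* KO line lost its floxed first exon to transiently expressed Cre recombinase. KO lines were expanded from picked single clones, and feeder fibroblasts were removed before differentiation. KO columns had been described as averages of replicates, so the number of samples behind each is unclear.

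The values were FPKM, fragments scaled by transcript length and by the fragments of the library, with 1 value for a gene and condition. Replicates were already pooled, so no SD or test could be had, and sequencing depth was unknown. In bulk RNA, fewer expressing cells and less RNA per cell could not be told apart. A gene was examined in a comparison when it exceeded 1 FPKM in either column, and counted as past the fold when its log2 ratio exceeded 1 in size. KO values were compared with WT within a table. For levels set across tables, each F1G4 KO value was divided by the ratio of the WT column in its table to the same stage of the time course, and the *Smad4* line was left as deposited. Nascent mesoderm markers matched the labels, as all 8 of a marker list exceeded 1 FPKM in WT cells on day 3 and none did in ES cells.

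*Apln* lies on the minus strand of chromosome X (chrX:48025146-48034853, GRCm38.p6), *Aplnr* on the plus strand of chromosome 2 (chr2:85136360-85139923) and *Apela* on the minus strand of chromosome 8 (chr8:65028417-65037336). In the RefSeq annotation no other gene overlapped any of the 3 spans. The promoters of both ligand genes are shown here because their RNA followed different courses in the same cells. Each is the 250 bases before the RefSeq gene start (*Apln*, chrX:48034854-48035103, and *Apela*, chr8:65037337-65037586, both minus strand), written 5′ to 3′ on the strand of the gene, with capitals marking the letters CAGAC, the core of a Smad site.

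Apln: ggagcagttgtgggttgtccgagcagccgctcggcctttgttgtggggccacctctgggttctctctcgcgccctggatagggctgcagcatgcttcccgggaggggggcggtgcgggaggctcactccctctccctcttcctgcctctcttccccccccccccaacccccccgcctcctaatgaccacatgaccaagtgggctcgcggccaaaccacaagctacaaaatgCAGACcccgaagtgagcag

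Apela: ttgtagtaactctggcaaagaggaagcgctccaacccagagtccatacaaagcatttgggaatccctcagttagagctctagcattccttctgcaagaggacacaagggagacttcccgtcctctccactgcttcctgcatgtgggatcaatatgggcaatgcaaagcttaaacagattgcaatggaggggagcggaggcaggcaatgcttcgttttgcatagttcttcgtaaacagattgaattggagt

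The *Apln* stretch was the richer in G and C, with 65.2% against 48% in *Apela* and a median of 52.4% over 32851 mouse promoters of this length. CAGAC occurred once before *Apln*, 19 bases from the start, and not before *Apela*. On either strand 42.2% of all promoters held these letters. The T-box letters TCACACC, the Tcf/Lef letters CTTTGA and the Hif letters ACGTG had no match in either stretch, and were held by 3.33%, 13.8% and 16.6% of all promoters. A match of letters is a description of the sequence only, and a missing match says nothing of more distant sites.

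During differentiation of WT cells *Apln* climbed from near 0 on each successive day, and *Aplnr* joined it on day 3 from almost no signal. *Apln* stood at 0.0526 FPKM before induction, at 0.246 on day 1, at 2.47 on day 2 and at 25.6 on day 3. The ligand gene was thus about 10 times higher each day from day 1 on (10.0-fold from day 1 to day 2, log2 3.32, and 10.4-fold from day 2 to day 3, log2 3.38). *Aplnr* was listed at 0 before induction and had 0.0229 FPKM on day 1, then 0.0616 on day 2, then 12.3 on day 3. Receptor RNA was close to the floor of the table until day 2 and well above it only on day 3, a 199-fold difference between the last days (log2 7.64). As the day 2 value was near 0, this size depends on the pseudocount, with a log2 ratio of 6.26 after adding 0.1 FPKM and 3.65 after adding 1.

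Among all examined genes, both were near the top of these steps. From day 1 to day 2, 1 of the 2 genes was examined, and *Apln* ranked 43rd highest of 11260 genes, of which 7.18% were past the fold in the higher direction. From day 2 to day 3 both were past the fold against 6.14% of all examined genes, *Aplnr* at rank 13 and *Apln* at rank 76 of 11394. Over the whole course, from ES to day 3, *Apln* was 487-fold higher (log2 8.93, rank 64 of 11554) and 18.5% of examined genes were past the fold upward. The ES value was near 0, and the log2 ratio was 7.40 with 0.1 FPKM added and 4.66 with 1 FPKM added. No fold was taken for *Aplnr* over ES cells, since it was listed at 0 there. On day 3 *Apln* exceeded 87.6% of genes by FPKM and *Aplnr* 79.2%.

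*Apela*, the gene of the other ligand, was abundant at every stage and did not pass the fold between any pair of stages compared. Its level was 109.6 FPKM before induction, then 84.2 on day 1, then 143 on day 2, then 126 on day 3. On this per-length scale, *Apln* made up 0.0480% of the summed FPKM of both ligand genes before induction, then 0.292%, 1.69% and 16.9% on days 1, 2 and 3. *Apela* RNA therefore remained the larger share of ligand RNA throughout, while that of *Apln* went up by a step each day.

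**Figure D1:**
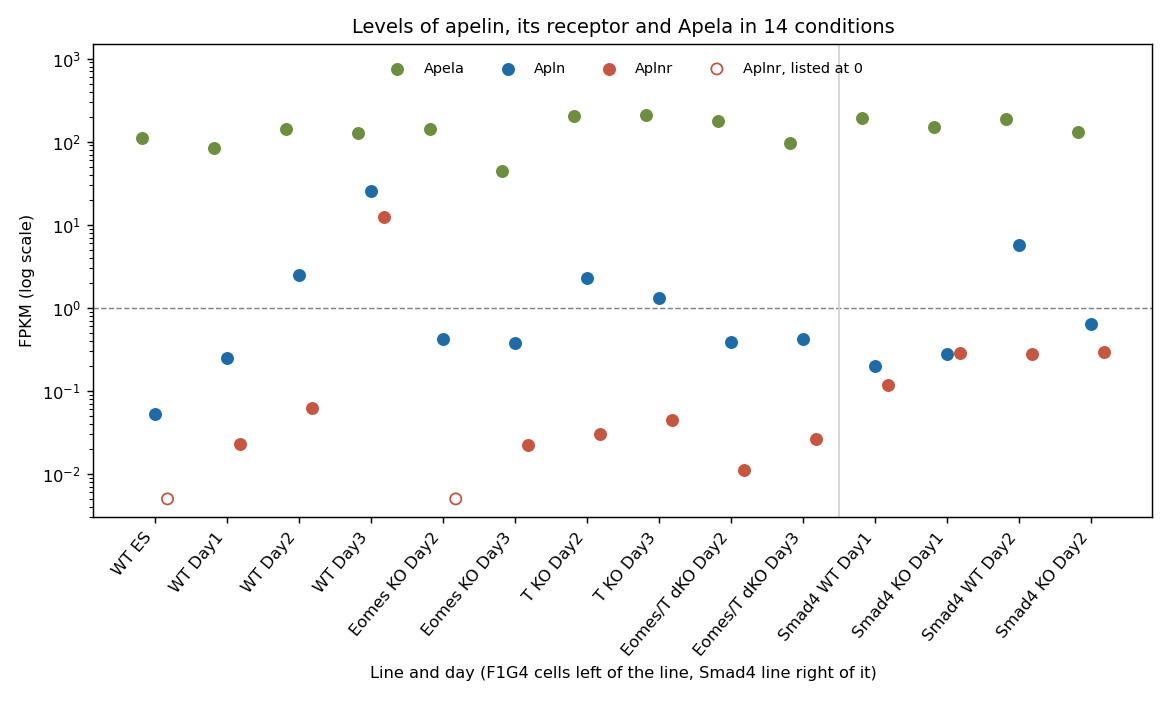
FPKM on a log scale (y axis) of Apela, Apln and Aplnr in 14 line and day groups (x axis), 1 value per group, with values of 0 drawn hollow at the bottom and a dashed line at 1 FPKM. Aplnr stands above 1 FPKM in WT cells on day 3 alone (12.3), Apln is highest there (25.6), and Apela lies between 44.3 and 207 in all groups.

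WT cells of the *Smad4* line gave a similar early course for *Apln*. It stood at 0.202 FPKM on day 1 and 5.75 on day 2, 28.5-fold higher, against 0.246 and 2.47 in F1G4 cells. With both lines scaled to the same median, *Apln* was higher in the *Smad4* line on day 2 by 1.23 on the log2 scale, while the robust SD of this difference over 1000 genes of like level was 0.411. The induction of *Apln* by day 2 was thus seen in both WT lines. Its day 2 levels differed between them by more than genes of that level usually did. *Aplnr* stood at 0.119 FPKM on day 1 and 0.279 on day 2 in that line, under 1 FPKM as in F1G4 cells. The time course of the *Smad4* line ended before the day on which *Aplnr* was high in F1G4 cells.

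In the line labelled *Smad4* KO, *Apln* was low on day 2. It had 5.75 FPKM in WT cells against 0.643 in KO cells, 8.94-fold lower (log2 −3.16). It was the only one of the 2 genes examined there and ranked 51st lowest of 10999, of which 3.21% were past the fold in the lower direction. From day 1 to day 2 *Apln* was 2.30-fold higher in KO cells (0.279 to 0.643 FPKM), against 28.5-fold in WT. Neither gene exceeded 1 FPKM on day 1, when *Apln* stood at 0.202 in WT and 0.279 in KO. *Aplnr* was under 0.3 FPKM in all 4 groups of this line, with 0.279 (WT) and 0.292 (KO) on day 2, so it could not be compared.

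The label of the *Smad4* KO could not be checked by *Smad4* itself. On day 2 it had 39.3 FPKM in WT cells against 46.8 in KO cells (log2 0.25), and the deletion removes the first exon only. In the F1G4 lines the targeted genes were low. The log2 ratio of *Eomes* in *Eomes* KO cells was −1.96 on day 2 and −6.20 on day 3, and that of *T* in *T* KO cells was −2.75 and −6.75. In dKO cells the ratios were −2.92 and −5.87 for *Eomes* and −3.96 and −7.43 for *T*.

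On day 2, *Apln* was low in both lines that lacked *Eomes* and near WT in cells that lacked *T* alone. From 2.45 FPKM in WT cells it was down to 0.415 without *Eomes* (5.91-fold lower, log2 −2.56) and to 0.384 in the dKO (log2 −2.67). In *T* KO cells it stood at 2.37 FPKM against 2.55 in WT (log2 −0.11, and 0.01 with TPM). The *T* KO value lay inside the fold, and the *Eomes* KO and dKO values differed from each other by less than 0.1 FPKM. *Aplnr* was not examined in any of these 3 comparisons, with at most 0.0641 FPKM in WT cells and 0.0310 in any KO. Of examined genes, 4.17% were past the fold in the lower direction in *Eomes* KO cells, 4.5% in dKO cells and 9.93% in *T* KO cells. *Apln* ranked 28th lowest of 11226 genes in *Eomes* KO and 36th lowest of 11195 in dKO cells.

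On day 3, both *Apln* and *Aplnr* were low in all 3 KO lines. Without *Eomes*, *Apln* stood at 0.390 FPKM against 26.8 in WT (68.8-fold lower, log2 −6.10). Without *T* it stood at 1.33 against 25.9 (19.4-fold, log2 −4.28), and in the dKO at 0.439 against 26.7 (60.7-fold, log2 −5.92). The *T* KO line thus kept the highest *Apln* of the 3, and the single and double KO of *Eomes* lay close together.

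*Aplnr* was close to 0 in all 3 KO lines on day 3. Without *Eomes* it had 0.0230 FPKM against 12.8 in WT (559-fold lower, log2 −9.13). Without *T* it had 0.0450 against 12.4 (276-fold, log2 −8.11), and in the dKO 0.0277 against 12.8 (461-fold, log2 −8.85). All KO values were under 0.05 FPKM, and the number of fragments behind such values is unknown, so the size of these folds is imprecise. With 1 FPKM added to both columns the log2 ratios of *Aplnr* were −3.76 without *Eomes*, −3.68 without *T* and −3.74 in the dKO, beside −4.32, −3.53 and −4.27 for *Apln*. Which of the pair had the larger ratio therefore turned with the pseudocount in *Eomes* KO and dKO cells. The same WT samples served the 3 comparisons of a day, so these comparisons are not independent.

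Set against all genes, both members were past the fold in the lower direction in each day 3 comparison. The background share was 9.01% of 11629 genes in *Eomes* KO cells, 3.92% of 11239 in *T* KO cells and 5.53% of 11473 in dKO cells. *Aplnr* ranked 27th, 17th and 21st lowest in the 3 lines, and *Apln* 39th, 48th and 32nd. Median genes of the same chromosome moved little. Genes of chromosome X had median log2 ratios between −0.122 and 0.00148 over the 8 KO comparisons, and those of chromosome 2 between −0.00329 and 0.0146.

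**Figure D2:**
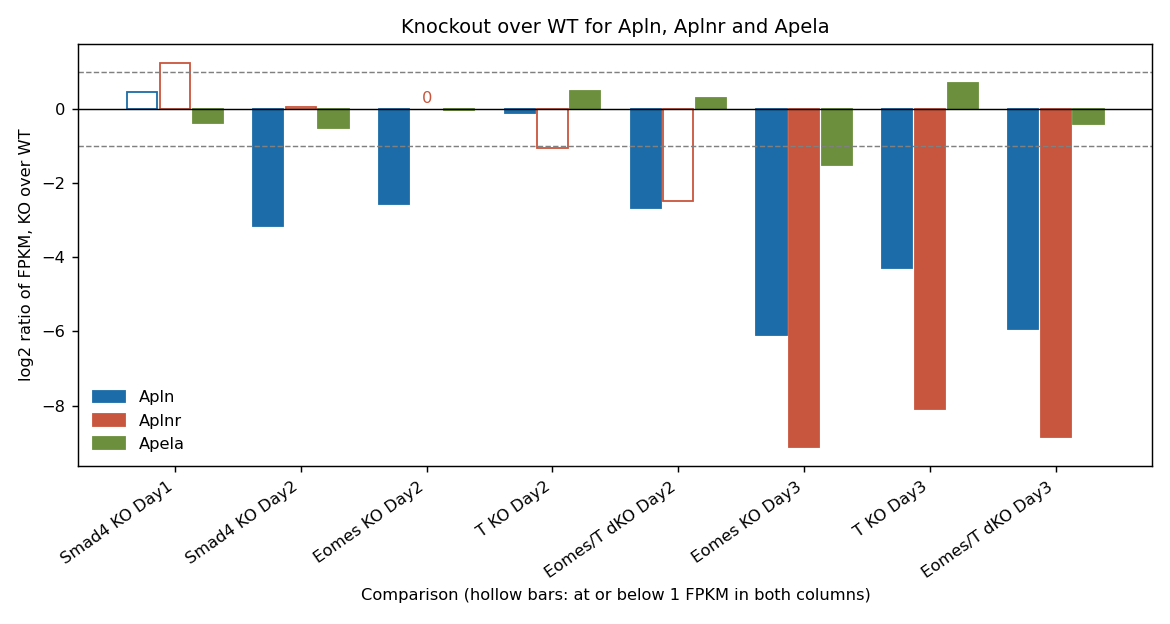
Log2 ratio of FPKM in KO over WT cells (y axis) for Apln, Aplnr and Apela in 8 comparisons (x axis), with dashed lines at −1 and 1, hollow bars for genes at or below 1 FPKM in both columns and a 0 where the KO value was listed at 0. Apln lies between −2.56 and −3.16 in 3 of the 4 day 2 comparisons and at −0.11 in T KO cells, and on day 3 Apln reaches −4.28 to −6.10 and Aplnr −8.11 to −9.13.

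The step from day 2 to day 3 was missing in each KO line. On the common scale *Apln* was 10.4-fold higher on day 3 than on day 2 in WT cells, and stood at 0.892 times its day 2 level in *Eomes* KO, 0.575 times in *T* KO and 1.09 times in dKO cells. In *T* KO cells it began near WT on day 2 (2.30 FPKM) and stood at 1.32 on day 3. *Eomes* KO and dKO cells were already at 0.419 and 0.389 FPKM on day 2 and remained at 0.373 and 0.423. *T* KO cells thus differed from the other lines in their day 2 level of *Apln*, and all 3 lines lacked the day 3 increase. The order of *Apln* over the 10 F1G4 groups ran from WT day 3 through WT day 2, *T* KO day 2 and *T* KO day 3, and the next groups, at 0.373 to 0.423 FPKM, were the 4 of the *Eomes* KO and dKO lines. *Aplnr* stood at 12.3 FPKM in WT cells on day 3, and its other 9 F1G4 groups lay between 0 and 0.0616. Without replicate values it is not known which neighbours in either order differ.

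*Apela* did not follow *Apln* or *Aplnr* in the KO lines. On day 2 it had 141 FPKM without *Eomes* against 142 in WT (log2 −0.01) and 208 without *T* against 147 (log2 0.50), with a log2 ratio of 0.32 in the dKO. On day 3 it had 46.3 FPKM without *Eomes* against 132 in WT (log2 −1.51) and 209 without *T* against 127 (log2 0.72), with a log2 ratio of −0.40 in the dKO. *Apela* was past the fold only in *Eomes* KO cells on day 3, where it was lower, and was higher in *T* KO cells on the same day. The dKO value of day 2 turned to −0.09 with FPKM rescaled to TPM. Genes of chromosome 8, where *Apela* lies, had median log2 ratios of 0.17 to 0.23 in the 6 comparisons of F1G4 KO lines, and their part in these values was not tested. In *Smad4* KO cells the log2 ratio of *Apela* was −0.36 on day 1 and −0.51 on day 2.

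**Figure D3:**
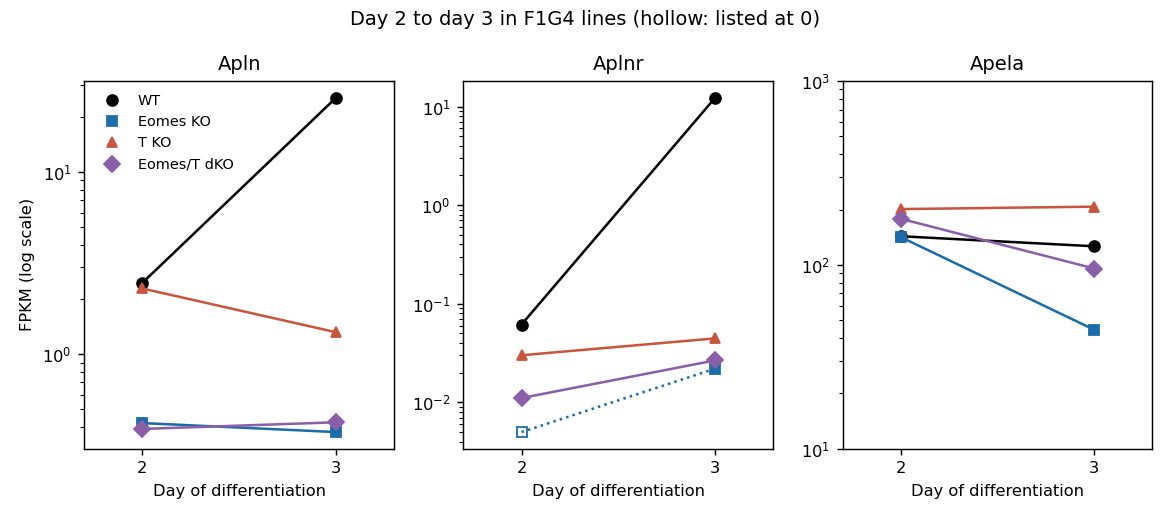
FPKM on log scales (y axes, a different range in each panel) on days 2 and 3 (x axes) for Apln, Aplnr and Apela in WT, Eomes KO, T KO and dKO cells, all F1G4, 1 value per point, hollow where listed at 0. Apln and Aplnr climb steeply in WT cells alone, to 25.6 and 12.3, while Apela is lowest in Eomes KO cells on day 3 at 44.3.

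The known partners of the apelin system were summarised by lists drawn up with earlier results of these data in view. The receptors closest in family, the angiotensin receptors and the *Gpr15* and *Gpr25* products, were at or under 1 FPKM in every comparison (0 of 5 examined). From ES to day 3, 18.5% of all examined genes were past the fold upward. Of 6 genes of ligands and their processing, 4 were examined and 3 were past it. They were *Apln*, *Furin*, a protease that cuts precursor proteins (0.883 to 5.95 FPKM, log2 2.75), and *Mme*, the peptidase neprilysin, which breaks down apelin (4.24 to 8.79 FPKM, log2 1.05). In *Eomes* KO cells on day 3, where 9.01% of examined genes were lower, 3 of the 4 were, *Apln*, which was chosen for being lower, *Apela* and *Furin* (log2 −1.06). In *T* KO cells that day *Apln* alone was lower, against 3.92% of all examined genes. In dKO cells *Apln* was lower and *Mme* higher (log2 1.13), against 634 lower and 632 higher of 11473 examined genes.

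Of 15 genes that act below the receptor, 12 or 13 were examined in each KO comparison, and at most 2 of these were past the fold. On day 3, 1 of 12 was lower in *Eomes* KO, 1 in *T* KO and 2 in dKO cells. The shares of all examined genes that were lower were 9.01%, 3.92% and 5.53%. In *T* KO cells 1 of the 12 was also higher, against 238 of 11239 examined genes. *Gnai1*, which encodes an inhibitory G protein subunit, stood at 13.2 FPKM in WT cells on day 3 and was lower in *Eomes* KO (log2 −2.63), *T* KO (−1.51) and dKO cells (−2.07). *Arrb1*, the gene of β-arrestin 1, stood at 1.89 FPKM before induction and 9.31 on day 3 (log2 2.30), and was lower in the dKO that day (log2 −1.12). *Klf2*, a transcription factor gene, was lower on day 3 than in ES cells (log2 −3.65) and higher in *T* KO than in WT cells on day 3 (log2 1.28). Over the 12 examined genes of the list, median log2 ratios with 0.1 FPKM added were −0.14 in *Eomes* KO, −0.12 in *T* KO and −0.26 in dKO cells on day 3. Over all examined genes they were −0.04, −0.01 and −0.03.

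*Apln* is also known as a gene induced by low oxygen, so 10 hypoxia-inducible genes were set beside it. From ES to day 3, 7 of 9 examined were past the fold upward, against 18.5% of all examined genes, led by *Adm*, the gene of the vessel hormone adrenomedullin (log2 6.83), *Ndrg1*, a stress-induced gene (3.43), *Vegfa*, which encodes a vessel growth factor (3.17), and *Bnip3*, a mitophagy gene (2.47). *Adm* stood at 0.0332 FPKM in ES cells, near the floor, so the size of its ratio is imprecise. The median of the 9 examined genes, with 0.1 FPKM added, was 2.38 beside −0.02 over all examined genes. Among the KO comparisons the dKO on day 3 alone had more than 2 genes of the list past the fold. In *Smad4* KO cells on day 2, none was lower and 2 of 8 examined were higher, against 2.56% of all examined genes, *Slc2a1*, the gene of a glucose transporter (log2 1.66), and *Bnip3* (1.57), while *Apln* was lower. On day 3, 2 of 9 were lower in *Eomes* KO cells, against 9.01% of all examined genes. They were *Ldha*, a glycolytic enzyme gene (log2 −1.36), and *Ndrg1* (−1.02). In *T* KO cells 1 of 9 was lower, against 3.92%, *Egln3*, which encodes an oxygen sensor (−1.51). In dKO cells 6 of 9 were lower, against 5.53% of all examined genes, led by *Ndrg1* (−2.78), *Egln3* (−2.22), *Bnip3* (−2.13) and *Ankrd37* (−1.54). The median of the 9 examined was −1.30 beside −0.03 over all examined genes. The part of oxygen supply in the values of *Apln* was not tested.

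Marker genes of nascent mesoderm were low beside *Apln* in all KO lines on day 3 and mixed on day 2. The summed FPKM of the 8 genes, which include *T* and *Eomes* themselves, was 1.48 in WT cells before induction, then 7.19, 88.0 and 447 on days 1, 2 and 3. It was 9.27 in *Eomes* KO, 32.5 in *T* KO and 22.5 in dKO cells on day 3, with 8 of 8 genes, the deleted ones included, past the fold in the lower direction in each line, against 9.01%, 3.92% and 5.53% of all examined genes. On day 2 the sum was 45.7, 62.8 and 23.8 in these lines, and 4.24 in *Smad4* KO cells against 90.5 in WT cells of that line. *T* was a large part of these sums, at 43.5 FPKM in F1G4 WT cells on day 2 and 320 on day 3. On day 2 it stood at 22.5 in *Eomes* KO cells, and at 6.44 and 2.80 in *T* KO and dKO cells, where it was deleted. The sums of the *T* KO and dKO lines therefore do not give the course of the other genes. Of 6 genes examined that day, the deleted ones included, 3 were lower in *Eomes* KO, 4 in dKO and 6 in *Smad4* KO cells. The shares of all examined genes that were lower were 4.17%, 4.5% and 3.21%. In *T* KO cells, where *Apln* was near WT, 3 of the 6 were lower, *T* included, against 9.93% of all examined genes. The 2 that were higher were *Eomes* (log2 1.33) and the homeobox gene *Evx1* (1.06), against 5.7% of all examined genes. Besides the deleted genes, *Mixl1* and *Fgf8* alone were lower in the F1G4 KO lines on day 2, and in each of them. Of 4 definitive endoderm markers, *Foxa2* alone exceeded 1 FPKM in WT cells on day 3, at 4.50. It was lower that day in *Eomes* KO (log2 −5.89) and dKO cells (−3.91), and stood at 2.77 FPKM in *T* KO cells, inside the fold. The part of a different number of mesoderm cells in the values of *Apln* and *Aplnr* was not tested.

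Vessel and heart cells are known sources of the receptor and its ligands, and several of their defining markers were at or near 0. Of 8 endothelial markers 3 exceeded 1 FPKM in WT cells on day 3, *Etv2*, an early blood and vessel transcription factor gene, at 2.38, the adhesion gene *Pecam1* at 3.24, and *Egfl7*, which encodes a secreted vessel protein, at 16.4. All 3 were above it in ES cells too, at 2.83, 16.6 and 15.9 FPKM. The receptor gene *Kdr* stood at 0.415, *Cdh5*, the gene of the endothelial cadherin, at 0.0707, and *Tie1* was listed at 0. Of the 3 examined on day 3, *Etv2* was lower in *Eomes* KO (log2 −2.18), *T* KO (−2.39) and dKO cells (−1.32), and *Pecam1* was higher in *Eomes* KO cells (1.31). The summed FPKM of the 8 genes was 17.5 to 37.7 over all 14 groups, and 22.7 in WT cells on day 3. Of 5 cardiomyocyte markers 3 exceeded 1 FPKM in WT cells on day 3. *Actc1*, a cardiac actin gene, stood at 2.44 and *Myl7*, an atrial myosin gene, at 1.03 (1.34 in ES cells). *Tnnt2*, the gene of cardiac troponin T, stood at 1.01, while the heart factor gene *Nkx2-5* was listed at 0. On day 3 *Myl7* was lower in *Eomes* KO (log2 −2.36), *T* KO (−1.52) and dKO cells (−2.09). *Tnnt2* was lower that day in *Eomes* KO (−1.76) and *T* KO cells (−2.59), and stood at 1.16 FPKM in dKO cells. *Actc1* was inside the fold on day 3, at 2.47 FPKM in *Eomes* KO, 3.63 in *T* KO and 3.94 in dKO cells. Of 3 examined, 2, 2 and 1 were thus lower in these lines, against 9.01%, 3.92% and 5.53% of all examined genes. The summed FPKM of the 5 genes that day was 4.58 in WT, 3.00 in *Eomes* KO, 4.36 in *T* KO and 5.59 in dKO cells. On day 2 *Actc1* was higher in *Eomes* KO (1.44), *T* KO (1.50) and dKO cells (1.72). The summed FPKM of 6 feeder fibroblast markers was 0.600 to 5.35 over all 14 groups.

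Genes whose levels over the 10 F1G4 groups were most like those of *Apln* or *Aplnr* were taken by Pearson's r of log2(FPKM + 0.1) among 9136 genes. For *Apln* these were *Tmem185a* (r = 0.95), *Cpxm2* (0.92), *Fah* (0.91), *Dock11* (0.91), *Scly* (0.91), *Sp5* (0.90), *Pex6* (0.90) and *Hace1* (0.89). *Tmem185a* and *Dock11* lie on chromosome X, as *Apln* does. *Sp5*, which encodes a transcription factor downstream of Wnt, stood at 2.24 FPKM in WT cells on day 2, 12.7 on day 3, 8.50 in *T* KO cells on day 2 and 2.98 on day 3, and under 0.7 in all *Eomes* KO and dKO groups. On day 2, *Sp5* was thus above WT in *T* KO cells while *Apln* was near WT, and both were low without *Eomes*. These genes were selected for their likeness to *Apln*, so a shared pattern is no finding.

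For *Aplnr* the most alike were *Msgn1* (r = 0.99), *Appl1* (0.98), *Crh* (0.97), *Mesp1* (0.95), *Crot* (0.95), *Rtp4* (0.94), *Cpxm2* (0.94) and *Fabp7* (0.93). *Msgn1*, which encodes mesogenin, a transcription factor of presomitic mesoderm, stood at 21.6 FPKM in WT cells on day 3 and was listed at 0 in all 6 KO groups. *Mesp1*, a master gene of cardiac mesoderm, stood at 5.45 FPKM in WT cells on day 3 and at most at 0.175 in the other groups. *Appl1*, the gene of an endosomal adaptor protein, reached 69.1 FPKM there against 25.2 to 32.0 elsewhere, so likeness of pattern did not mean likeness of level or of fold.

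The correlation of *Apln* with *Aplnr* was 0.84, which placed *Aplnr* 32nd for *Apln* and *Apln* 28th for *Aplnr*, while *Apela* ranked 2047th for *Apln* (r = 0.33) and 4304th for *Aplnr* (r = 0.04). These values rest on 10 groups, brought to 1 scale through shared WT columns, and include 1 group, WT on day 3, in which *Aplnr* was above 1 FPKM. Without that group *Apln* and *Aplnr* had r = 0.80 over the other 9, in which *Aplnr* was at most 0.0616 FPKM. The 8 genes named for *Aplnr* then had r from −0.30 (*Mesp1*) to 0.72 (*Cpxm2*), with *Msgn1* at −0.000338. The 8 genes named for *Apln*, selected for likeness in these same data, had r from 0.72 (*Scly*) to 0.90 (*Sp5*) without it.

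**Figure D4:**
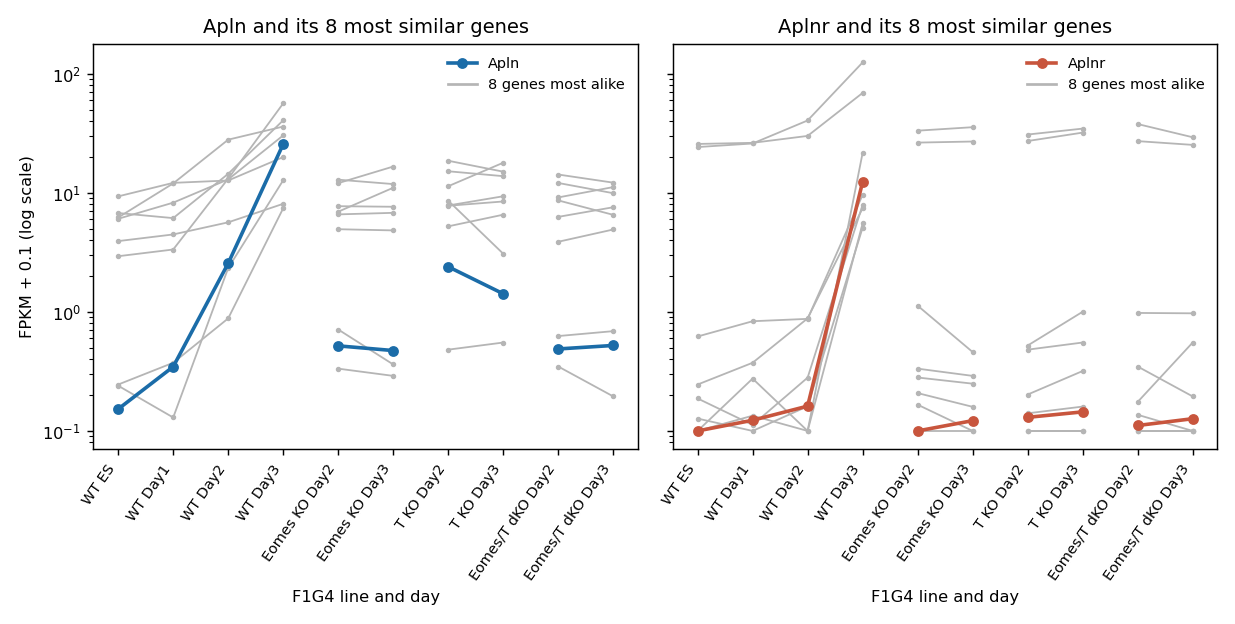
FPKM + 0.1 on a log scale (y axis) in 10 F1G4 groups (x axis) for Apln and Aplnr (coloured) and the 8 genes most like each (grey), with lines drawn within a cell line only. Every grey gene is highest in WT cells on day 3, at 5.01 FPKM (Crh) to 124.8 (Crot), and the panel of Apln also shows a gene, Sp5, that is high in T KO cells on day 2 at 8.50.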

How the data were processed

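RNA-seq libraries were strand-specific and sequenced paired-end. The deposited values are FPKM, which the authors computed with Cuffdiff (multi-read and bias correction) on RefSeq genes after trimming with cutadapt and alignment to mm10 with HISAT2 (versions 2.2.1, 2.9 and 2.1.0 per the submitters' processing notes). The 9 tables were the WT time course and 8 KO comparisons, each normalized separately, with replicates pooled. Each WT column of an F1G4 KO table was close to its time-course column times a constant (median ratio 0.989 to 1.04), though not exactly so for each gene. Low FPKM values showed no steps of whole reads, so counts and depth could not be recovered and counting precision is unknown.

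Log2 ratios were taken within a table, without a pseudocount, and a gene was examined above 1 FPKM in either column and past the fold beyond a log2 ratio of 1, after the rule of the study. No fold was given against a value of 0, but an examined gene listed at 0 in the other column was counted as past the fold. List medians and correlations used log2(FPKM + 0.1), the latter among genes of at least 5 FPKM in 1 group. In the time course, 24534 genes could be used by name, and some names converted to dates were not used. Positions and promoters were taken by symbol from RefSeq tables (GRCm38.p6), which placed 23893 genes. The promoter of *Aplnr* and protein sequences are not shown here.

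Named genes were both members, *Smad4*, *Eomes* and *T* in their own KO, *Apela*, at most 4 genes past the fold per list and comparison, and the 8 most alike genes of each member. Markers named for their level (*Kdr*, *Cdh5*, *Tie1*, *Pecam1*, *Egfl7*, *Nkx2-5*, *Actc1*, *Myl7* and *Tnnt2*) were chosen after their values were seen. So were *Mixl1* and *Fgf8*. Members and lists were chosen with earlier results of these data known. Alternatives were pseudocounts of 0.1 and 1, TPM, a median ratio of 0, subtraction of the chromosome median, other minimum levels and other measures of likeness. The *Apela* alternatives, the likeness without WT day 3 and the counts without genes listed at 0 were added after seeing the data. The scripts were tested on simulated data. Scripts ran under Python 3.11.15 with pandas 2.3.3, numpy 2.4.6 and matplotlib 3.10.9.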

Additional observations from a re-analysis of the deposited data

Results flagged for a closer look

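*Apela*, the gene of the other ligand of the apelin receptor, went in opposite directions in 2 KO lines on day 3. Its log2 ratio of KO over WT was −1.51 in *Eomes* KO cells (132 to 46.3 FPKM) and 0.72 in *T* KO cells (127 to 209 FPKM). It was singled out because the signs were opposite and each was beyond 0.5 in size. The difference between the lines was not tested, as each column holds 1 value. With the median of chromosome 8 subtracted the values were −1.72 and 0.49, and with TPM −1.22 and 0.66.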

How the results depend on the processing

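The log2 ratios of *Apln* (13 comparisons) and *Aplnr* (9 comparisons) stayed on their side of the fold under each of 5 alternatives, 65 and 45 values in all, where a gene at or under 1 FPKM in both columns counted as not past it. They also kept their direction, except *Apln* in *T* KO cells on day 2, at −0.11 and with TPM at 0.01. Where the gene was not examined, its side was fixed by that rule, so these values are no check. For *Apln* this held in *Smad4* KO cells on day 1 and in WT day 1 over ES. For *Aplnr* it held in all but the day 3 KO comparisons and WT day 3 over day 2. The ratios themselves moved there, as for *Aplnr* in dKO cells on day 2 (−2.48, and −0.54 with 0.1 FPKM added). Rescaling to TPM shifted every log2 ratio by −0.22 in *Eomes* KO and −0.41 in dKO cells on day 2, by 0.28 and −0.11 in these lines on day 3, by 0.12 in *T* KO cells on day 2, and by 0.14 and 0.13 in WT cells on days 2 and 3 over ES cells. The share of lower genes among those past the fold went with it from 55.5% to 73.8% in *Eomes* KO and from 56.4% to 88.2% in dKO cells on day 2, from 55.0% to 29.7% in *Eomes* KO cells on day 3 and from 63.5% to 51.7% in *T* KO cells on day 2. The numbers of lower genes with TPM were 764, 1515 and 656 in the first 3 of these. Without a minimum, lower genes numbered 2134 in *Eomes* KO, 2873 in *T* KO and 2140 in dKO cells on day 2, 2231, 1878 and 1857 on day 3, and 1883 in *Smad4* KO cells on day 2, and higher genes in WT cells 2622 from day 1 to day 2, 2096 from day 2 to day 3 and 4236 from ES to day 3. With genes listed at 0 in either column also left out, which was chosen after seeing the data, these counts were 1346, 1804, 1312, 1631, 1332, 1239, 1079, 1831, 1519 and 3317. With a pseudocount of 1, lower genes numbered 168 in *Eomes* KO, 170 in dKO and 203 in *Smad4* KO cells on day 2, and 253 in *T* KO and 376 in dKO cells on day 3, and higher genes 391 and 406 in the steps from day 1 to day 2 and from day 2 to day 3. Above 5 FPKM these counts were 160, 173, 148, 182, 311, 320 and 319, and 1118 genes were higher from ES to day 3. Of the 8 genes most like *Apln*, 2 were shared with Spearman's rho, 3 with a pseudocount of 1, 3 with 14 groups and 1 without WT day 3, and of those most like *Aplnr*, 0 with Spearman's rho, 5 with 14 groups and 0 without WT day 3. The lists of similar genes therefore depend on the measure and on WT day 3.

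Each column pools its samples, and no replicate was left out. No paired analysis was possible because the columns carry no replicate numbers. The differences have no replicate check, FPKM under 0.1 is not told from 0 at an unknown depth, and each KO line rests on picked clones.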
